A study of Arabidopsis thaliana with 12 samples.

Results

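The genes HISN4 (AT4G26900), ASL (AT5G10920) and DAPF (AT3G53580) of Arabidopsis thaliana code for enzymes in the synthesis of histidine, arginine and lysine, in this order. They were taken as the genes with these loci whose array probe the platform annotation assigns to 1 gene only, which gave 3 genes, each on 1 probe (probes 638, 643 and 3424), of 689 genes with a probe of their own and 3439 probes in all. The genes were selected on their recovery and cold values themselves, so those values are given below as a description, without a test.

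All plants were wild type of the ecotype Columbia 0, with no mutation or transgene named in the labels. The cold group was kept for 24 h in medium light at 4 °C, conditions the labels call photoinhibitory, and the recovery group had the same 24 h in the cold followed by a further 24 h at 20 °C, again in medium light. There was no group kept warm throughout, so the values compare cold with recovery and not either of them with unstressed plants. Each group held 6 samples of total RNA; the labels do not say which came from separate plants or cultures, so a p-value here reflects the spread of the samples at hand, part of which may be technical.

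Plants make all their amino acids, and histidine, arginine and lysine are made largely in the plastid. In the histidine pathway HISN4 is the imidazole glycerol phosphate synthase, which closes the imidazole ring with nitrogen from glutamine and releases a precursor of purines. ASL, argininosuccinate lyase, carries out the final reaction of arginine synthesis and splits argininosuccinate into arginine and fumarate. DAPF, diaminopimelate epimerase, turns LL-diaminopimelate into the meso form, which diaminopimelate decarboxylase then converts to lysine.

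The deposited values are signals from 0 to 100 on a linear scale. The median signal of a sample ran from 0.276 to 0.315 in cold and from 0.0971 to 0.128 in recovery, and probes listed at 0 made up 5.26% to 6.57% of a cold sample and 11.3% to 16.4% of a recovery sample. Signals were therefore compared in 3 ways: as deposited, as the percentile of a probe among the 3439 probes of its sample, and as log2(signal + 0.0415) after quantile normalization. Only the first contains the general drop of signal, in which the median probe had a ratio of recovery to cold of 0.431. For means, SDs and fits, sample 1 was averaged with 2, sample 3 with 4 and sample 5 with 6 in each group, which leaves 3 pairs per group. The labels name no organ. Of 9 genes fixed as green leaf markers 5 had a probe of their own, and none of these was listed at 0 in any sample. All 5 rose from cold to recovery after normalization, by 0.73 to 2.59 (log2, limma, adjusted p at most 0.0102). In the same fit 21.4% of all probes rose. The highest p-value of the 5 was that of the Calvin cycle gene SBPASE. Its signal as deposited had a median of 0.475 in the cold group and 0.418 after recovery, so it rose only relative to the other probes. As deposited, 4 of the 5 passed as higher. None of the 15 root, epidermis, guard cell and phloem markers had a probe of its own (0 of 15), so other cell types could not be assessed.

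HISN4 was bright in cold and close to the bottom of the signal range in recovery. Its deposited signal in the 6 cold samples was 3.04, 3.03, 1.84, 1.95, 2.33 and 2.13. In recovery samples 1 and 2 it was listed at 0, and in samples 3 to 6 it was 0.0538, 0.109, 0.0799 and 0.0904. The groups did not overlap, and the lowest cold value was 16.9 times the highest recovery value. The median over 6 samples was 2.23 in cold and 0.0668 in recovery, a ratio of 33.3.

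In percentiles, the HISN4 probe stood between 91.1 and 94.5 in every cold sample. It stood between 5.96 and 52.4 in recovery, with both samples at 0 near the lower end and the other 4 samples from 36.0 upwards. After quantile normalization its log2 value changed from cold to recovery by -4.16 ± 0.50 (SE of the limma fit, n = 3 per group). This was the 4th lowest change of the 690 probes with 1 known locus. Here and below, the SE of a change is that of limma, which adjusts the variance of each probe towards that of all probes. The SD of HISN4 itself between pairs was 0.37 in cold and 1.27 in recovery. Without the recovery pair listed at 0, the change was -3.38. Since the recovery signals lie near or below the added constant, the change also moved with it, to -4.59 with the constant halved and -3.67 with it doubled, so it is no measured fold. An exact 0 here may be a failed measurement rather than a level, which was not tested.

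**Figure D1:**
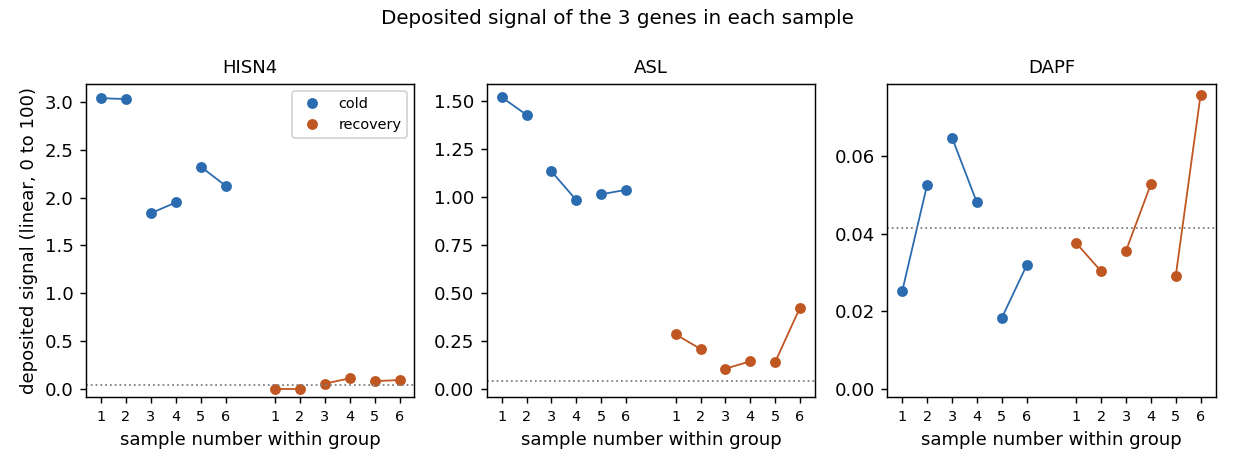
Deposited signal (linear scale, y axis) of HISN4, ASL and DAPF in each of the 6 cold (blue) and 6 recovery (orange) samples, numbered within their group on the x axis; lines join the samples averaged as a pair, and the dotted line marks 0.0415, the constant added before taking logarithms. The y axes differ between panels: HISN4 is at 1.84 or more in cold and at most 0.109 in recovery, ASL at 0.983 or more and at most 0.423, and DAPF reaches at most 0.0758 in either group.

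ASL was also lower in recovery, by less than HISN4. Its cold signals were 1.52, 1.43, 1.13, 0.983, 1.01 and 1.04, and its recovery signals were 0.283, 0.207, 0.104, 0.143, 0.139 and 0.423. No sample was at 0 and the groups did not overlap. The mean over 3 pairs was 1.18 (SD 0.25) in cold and 0.216 (SD 0.0825) in recovery. The ratio of the medians was 6.21, and the lowest cold value was 2.32 times the highest recovery value.

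The recovery value of ASL that came nearest to cold was that of sample 6, whose pair partner, sample 5, read 0.139. The difference within that pair was 1.20 on the normalized log2 scale, against a median within-pair difference of 0.24 over all probes in recovery. The percentile of ASL ran from 83.1 to 88.4 in cold and from 52.5 to 79.8 in recovery. The normalized change was -1.40 ± 0.22 (SE, n = 3 per group), the 48th lowest of 690. With recovery sample 6 left out, an alternative chosen after its value had been seen, the change was -1.58.

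DAPF was dim in both groups. Its deposited signal was 0.0182 at the lowest, 0.0399 at the median and 0.0648 at the highest in cold, and 0.0291, 0.0366 and 0.0758 in recovery. The groups overlapped almost fully, and the means were 0.0401 ± 0.0157 and 0.0435 ± 0.00929 (SD, n = 3 pairs). In 3 of 6 cold and 4 of 6 recovery samples the signal lay below the constant added before taking logarithms, so no fold is given.

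Among the probes of its sample, DAPF stood higher in recovery. Its percentile ran from 7.76 to 11.8 in cold and from 19.4 to 41.1 in recovery, without overlap. The normalized difference was 1.12 ± 0.25 (SE, n = 3 per group), but its size was set in part by the added constant: it was 1.53 with the constant halved and 0.76 with it doubled. In the dimmest 25% of all probes by mean over all samples, to which DAPF belongs, the median normalized change was 0.24, against 0.11 over all probes, and the share of probes listed at 0 was higher in recovery (above). The part of either in the higher percentile of DAPF was not tested.

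**Figure D2:**
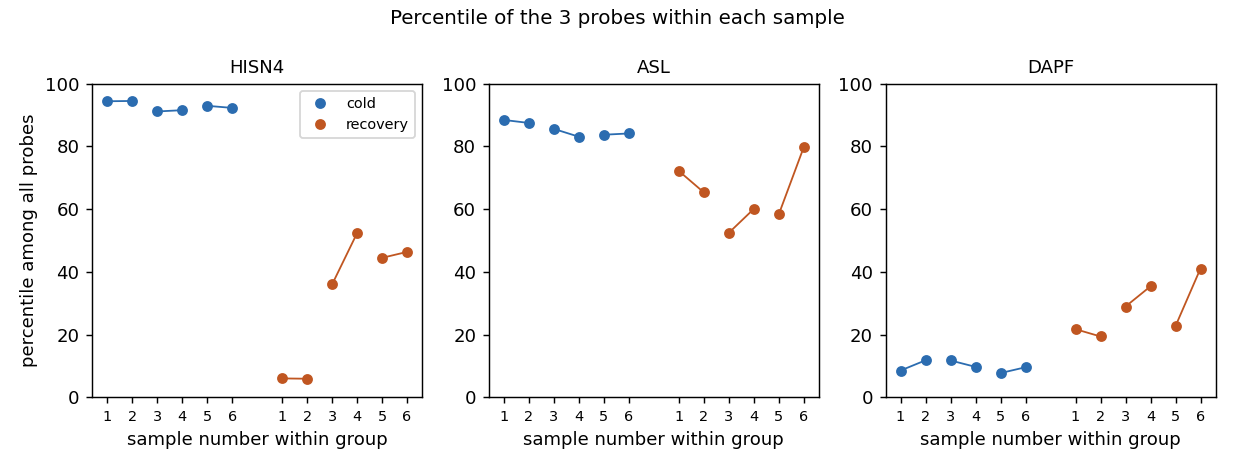
Percentile of the HISN4, ASL and DAPF probes among the 3439 probes of each sample (y axis, 0 to 100, ties given their mean rank), for 6 cold (blue) and 6 recovery (orange) samples on the x axis, with lines joining averaged pairs. HISN4 and ASL lie lower in every recovery sample than in any cold sample, and DAPF lies higher.

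As deposited, 2 of the 3 genes had all 6 recovery samples below all 6 cold samples, a pattern found in 49.2% of all probes. In percentiles and in normalized values HISN4 and ASL were likewise lower without overlap and DAPF higher. In normalized values, these patterns were shown by 15.9% and 19.0% of all probes. Since the genes were chosen with these values known, nothing is read from these counts.

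Between averaged pairs the genes varied by different amounts. In cold the SD between pairs on the normalized log2 scale was 0.37 for HISN4, 0.26 for ASL and 0.09 for DAPF, where the median over all probes was 0.21. The signals of DAPF lay around the added constant, which narrows differences on this scale, so its SD does not show a steadier gene. As deposited, the SD in cold was 0.0157 on a mean of 0.0401 for DAPF. It was 0.588 on 2.39 for HISN4 and 0.25 on 1.18 for ASL. HISN4 and ASL were both highest in cold samples 1 and 2. In recovery the SD was 1.27 for HISN4, 0.36 for ASL and 0.29 for DAPF, against a median of 0.27. The wide spread of HISN4 came from its pair at 0: the pair means were -4.54, -2.37 and -2.33. Recovery samples 1 and 2, where HISN4 was at 0, held ASL signals of 0.283 and 0.207, above 3 of the other 4 recovery samples.

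The size of each change depended on how samples were scaled to each other. HISN4 changed by -3.86 with cyclic loess, -3.62 with samples centred on their medians, -3.76 with each sample multiplied to bring its median to a shared value before the logarithm (median scaling) and -4.80 as deposited. ASL changed by -1.51, -1.17, -1.05 and -2.35 in the same order. DAPF changed by 0.79, 1.24, 0.82 and 0.06. The median probe stood at -0.86 as deposited and between 0.02 and 0.31 under the other 3, and HISN4 and ASL lay below it and DAPF above it under all 5 scalings.

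**Figure D3:**
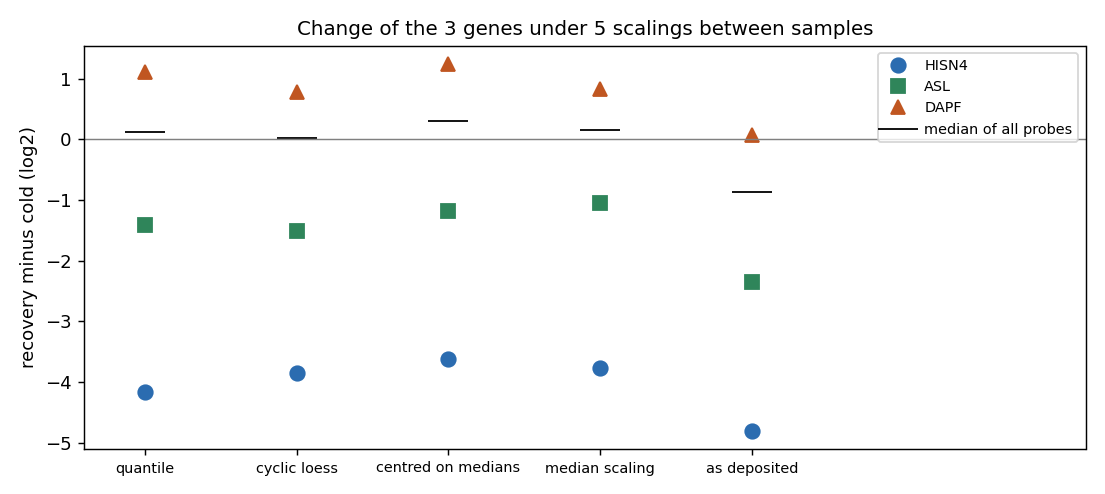
Change from cold to recovery (log2, y axis) of HISN4 (circles), ASL (squares) and DAPF (triangles) under 5 ways of scaling samples to each other (x axis); the black dashes give the median change of all probes under the same scaling. HISN4 stays between -3.62 and -4.80, ASL between -1.05 and -2.35, and DAPF between 0.06 and 1.24.

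Other steps of the same pathways were covered by probes that the annotation assigns to a pair of genes for 1 enzyme. These probes are named by the enzyme, as their values cannot be given to either gene. How far each gene adds to such a probe was not tested, and probes of the same pair differed (below). Of 38 genes listed for histidine, arginine and lysine synthesis, only HISN4, ASL and DAPF had a probe of their own. Another 7 probes were each shared by genes of 1 step, 2 in histidine synthesis, 4 in lysine synthesis and 1 in the synthesis of aromatic amino acids. Of these 7 probes 3 fell and 0 rose in the limma fit over all probes, while 19.3% of all probes fell and 21.4% rose. The tally moved with the scaling: 4 fell and 0 rose as deposited, 3 and 0 with cyclic loess, 2 and 1 with samples centred on their medians, and 1 and 1 with median scaling. Before adjustment 1 of them, probe 1473, was higher at the level of 0.05 (limma, unadjusted p = 0.0364). Their median is not used, since the probes share genes.

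Diaminopimelate decarboxylase, the enzyme that follows DAPF and releases lysine, was measured by both its probes as lower in recovery. On probe 1679 the cold signals had a minimum of 2.41, a median of 2.72 and a maximum of 3.49, and the recovery signals 0.187, 0.217 and 0.476. The normalized change was -2.63 ± 0.18 (SE, n = 3 per group; limma, adjusted p = 1.94e-06), with all 6 recovery samples below all 6 cold samples. On probe 1313 the signals were 0.763, 0.926 and 1.06 in cold and 0.175, 0.210 and 0.297 in recovery, again without overlap. Its change was -0.90 ± 0.20 (SE, n = 3 per group; limma, adjusted p = 0.00519). That of probe 1313 missed the threshold with median scaling (-0.54, adjusted p = 0.132), while probe 1679 passed under all 5 scalings (-1.96 to -3.30).

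Dihydrodipicolinate reductase, an earlier enzyme of lysine synthesis, gave no call after quantile normalization of all samples. Probe 590 had median signals of 0.163 in cold and 0.0765 in recovery and a normalized change of 0.40 ± 0.26 (limma, adjusted p = 0.248). As deposited it was lower, at -0.79 (limma, adjusted p = 0.0178), where the median probe was at -0.86. Probe 3354 stood at 0 in all 6 cold samples and in 4 of the 6 recovery samples, which leaves no usable fold. Its change of 0.46 (limma, adjusted p = 0.144) passed with samples centred on their medians (1.35, adjusted p = 0.0001) and without recovery samples 5 and 6 (0.76, adjusted p = 0.0257). Centring moves all values of a sample by the same amount, also those at 0. Before that shift, as deposited, the change was 0.18 (limma, adjusted p = 0.115).

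Imidazoleglycerol-phosphate dehydratase acts on the product of HISN4 in histidine synthesis and was measured by a bright and a dim probe. On the brighter probe 301 the cold signals were 1.62 at the lowest, 1.73 at the median and 2.27 at the highest, and those in recovery 0.731, 0.942 and 1.04, without overlap. The change was -0.47 ± 0.14 (SE, n = 3 per group; limma, adjusted p = 0.0239), but it was 0.16 (adjusted p = 0.405) with samples centred on their medians and 0.40 (adjusted p = 0.0376) with median scaling. The median probe was at 0.31 and 0.15 under these scalings, so probe 301 lay below the median probe under 4 of the 5 scalings and above it with median scaling. It also missed the threshold without cold samples 1 and 2 (-0.37), without recovery samples 3 and 4 (-0.45) and without recovery samples 5 and 6 (-0.43). On the dim probe 1473 the change was 0.68 ± 0.28 (limma, adjusted p = 0.0783), with a median signal of 0.113 in cold and 0.0646 in recovery. It was positive after cyclic loess, centring and median scaling as well (0.69, 0.64 and 0.45) and negative as deposited (-0.53), and it missed the threshold under all 5 scalings. It passed without cold samples 1 and 2 (0.92; limma, adjusted p = 0.032) and with the 12 samples taken as independent (0.68; limma, adjusted p = 0.0285). The difference between the probes was not tested.

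**Figure D4:**
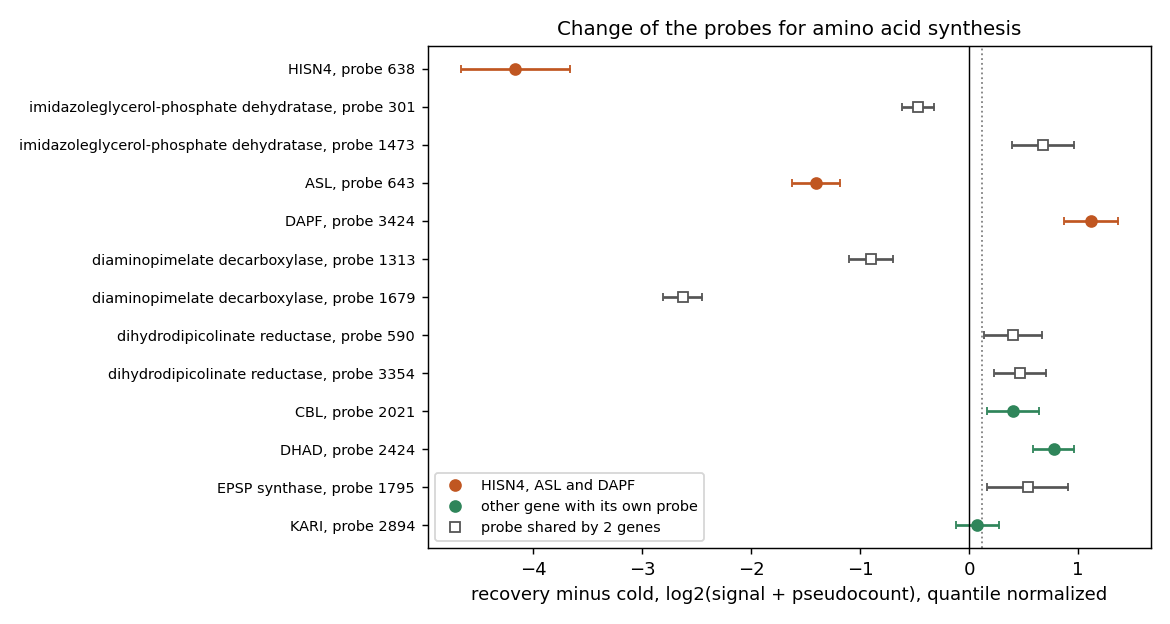
Change from cold to recovery (x axis, log2(signal + 0.0415) after quantile normalization) for each probe of amino acid synthesis named on the y axis. Bars are the SE of the limma fit (n = 3 pairs per group). HISN4, ASL and DAPF are in orange, other genes with their own probe in green, and probes shared by a pair of genes are open squares. The dotted line is the median of all probes at 0.11; HISN4 (-4.16) and diaminopimelate decarboxylase on probe 1679 (-2.63) lie farthest to the left.

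Among 142 further genes listed for the synthesis of all amino acids and for the use and breakdown of histidine, arginine and lysine, 3 had a probe of their own. Of these 3 genes 1 rose and 0 fell, while 40.7% of all probes passed in either direction, and their median change was 0.40, against 0.11 over all probes and 0.08 over the 690 probes with 1 known locus. DHAD (AT3G23940), the dihydroxyacid dehydratase of branched-chain amino acid synthesis, had signals of 0.819, 1.05 and 1.30 (lowest, median, highest) in cold and 1.01, 1.09 and 1.24 in recovery. These overlapped as deposited and separated after normalization, where the change was 0.78 ± 0.19 (SE, n = 3 per group; limma, adjusted p = 0.00833). As deposited its change was 0.09 (adjusted p = 0.607), so DHAD rose relative to the other probes and its signal itself differed by less than the spread between pairs.

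KARI (AT3G58610), the reductoisomerase that acts just before DHAD, had a normalized change of 0.07 ± 0.20 (limma, adjusted p = 0.781). CBL (AT3G57050), the cystathionine beta-lyase of methionine synthesis, had one of 0.40 ± 0.24 (limma, adjusted p = 0.199). Neither passed, but as deposited both were lower, KARI at -1.10 (adjusted p = 0.00448) and CBL at -0.76 (adjusted p = 0.0248), where the median probe was at -0.86. The shared probe 1795 for EPSP synthase, an enzyme of aromatic amino acid synthesis, had a change of 0.54 ± 0.38 (limma, adjusted p = 0.278). A search of gene names for amino acids added SIS (AT5G02020), whose name holds only the words serine rich and which was not counted; its change was -0.07 ± 0.33 (limma, adjusted p = 0.889).

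The genes whose values were most like each of the 3 were taken by the root mean square difference of normalized log2 values, centred on each probe's own mean, over 12 samples among 689 other probes with 1 known locus. For HISN4 they were APTX (AT5G01310), an aprataxin-like gene, at 0.89, AT2G46300 at 1.002 and AT5G39980, which codes for a pentatricopeptide repeat protein, at 1.02. None was close: the distance was a sizeable part of their changes of -2.48, -3.06 and -3.33. APTX, like HISN4, was listed at 0 in 2 samples. For ASL they were AT2G36560 (0.26), AT3G61540 (0.28) and AT5G48830 (0.29), with changes of -1.57, -1.65 and -1.25. For DAPF they were AT5G55220 (0.20), AT1G70180 (0.22) and AT5G56850 (0.24), with changes of 1.15, 1.08 and 0.79. The median deposited signal of AT5G55220 went from 0.0789 in cold to 0.0584 in recovery and that of AT1G70180 from 0.212 to 0.175. In these genes the normalized rise thus stood beside a lower median signal as deposited. For DAPF itself the direction as deposited depended on the measure. Its median went from 0.0399 to 0.0366 and its mean from 0.0401 to 0.0435.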

How the data were processed

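The deposited table holds 1 signal per probe and sample, from 0 to 100 on a linear scale; the sources used here do not give how the authors made these signals (background, scaling, the meaning of 0). Probes were named through the platform annotation and a RefSeq gene table (assembly TAIR10.1, names only): 692 probes had 1 gene, 870 several and 1877 were not listed; 690 matched a locus. Batches are not named, and one that falls together with a group cannot be told apart from it.

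Signals were taken as log2(signal + 0.0415), the constant being the 10th percentile of positive signals, and quantile normalized. Neighbouring samples were averaged in pairs, as in earlier work on these data. Their deviations from the group mean correlated at 0.34 to 0.50 in cold and -0.03 to 0.06 in recovery. A group mean includes the samples themselves, so deviations of unrelated samples would correlate below 0. Values near 0 therefore do not show that a pair is unrelated. Recovery was compared with cold by limma 3.58.1 in R 4.3.3 (lmFit, eBayes with trend, Benjamini-Hochberg over 3439 probes, threshold 0.05), and the procedure was tested on simulated data. Precision is limited by the number of arrays. The genes and lists were chosen with earlier results of these data known. The text names HISN4, ASL and DAPF, all listed amino acid genes with their own probe, and for each of the 3 genes the 3 probes nearest to it. The probes shared by genes of 1 enzyme were added after the annotation had been seen. Figures were drawn with matplotlib 3.10.9 in Python 3.11.15.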

Additional observations from a re-analysis of the deposited data

Results flagged for a closer look

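In 74 sets of 6 values (the signal or normalized log2 value of a named probe in 1 group), 5 had a sample far from the others; chance gives about 1 in 20. Diaminopimelate decarboxylase on probe 1679 was high in recovery sample 1, with a signal of 0.476 (-0.60 on the normalized log2 scale), which still lay below every cold sample. Dihydrodipicolinate reductase on probe 590 was low in the same sample (-3.32, normalized). CBL was high in recovery sample 4, with a signal of 0.305. PSAN, a subunit of photosystem I, was low in cold sample 1 (-0.39, normalized). No single value of HISN4, ASL or DAPF stood out in this way. The rule looks for 1 sample apart from the others, so low values that lie together can hide each other. HISN4 was listed at 0 in both samples of a recovery pair (-4.54 and -4.55, normalized), with the other recovery samples at -2.66 or higher. That this pair was not flagged therefore does not show that it lay close to the other samples.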

How the results depend on the processing

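As deposited, 2216 probes passed (192 higher, 2024 lower) instead of 1399 (735 higher, 664 lower), so 8.66% instead of 52.5% of the calls were higher. The share was 46.9% with cyclic loess, 69.8% with samples centred and 63.1% with median scaling. As deposited, the 3 further amino acid genes gave 2 calls instead of 1, with CBL (-0.76) and KARI (-1.10) lower; probe 590 passed as lower there (-0.79), and the Calvin cycle gene SBPASE was negative without passing (-0.29). ASL moved to -2.35 as deposited and to -1.05 with median scaling. DAPF moved to 0.064 as deposited, 0.79 with cyclic loess, 0.82 with median scaling, 1.53 with the added constant halved, 0.76 with it doubled and 0.80 with values at 0 as missing. Probe 301 was at 0.16 when centred, without passing and below the median probe, and passed as higher at 0.40 with median scaling. Probe 3354 passed when centred (1.35) and without recovery pair 3 (0.76), and probe 1473 without cold pair 1 (0.92) and with 12 independent samples. Centring gives every probe the same offset from its change as deposited, as on probes 301 and 3354. Apart from this offset, the cause of these shifts was not tested. Leaving out 1 pair at a time gave 1089 to 1345 probes, -4.51 to -3.38 for HISN4, -1.53 to -1.16 for ASL, 1.05 to 1.27 for DAPF, and 1 call among the 3 further genes each time. Without the dimmest 25% of probes DAPF itself was left out, so no change is given for it there. With the replicate number as a block 1381 probes passed, and no call among the named amino acid genes changed; same-numbered pairs of the groups correlated at 0.06, 0.12 and -0.0050. Near 0, signal over background limits what can be measured, as for DAPF and for HISN4 in recovery.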
